A study of Mus musculus with 2 samples.

Results

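The ATP-binding cassette (ABC) genes of haematopoietic progenitors were described on 2 expression arrays. They were taken as every gene whose name in the scanner files begins with Abc, a subfamily letter from a to g and a digit, on spots that are not controls. This gave 50 genes with 97 probes, of 27595 genes with a probe on the array, and 31 of the 50 were measured on both arrays. The rule uses gene names and no signal. The cells were LSK cells (lineage marker-negative, Sca-1-positive, c-Kit-positive), the bone marrow fraction that holds the haematopoietic stem cells and multipotent progenitors. They were sorted by flow cytometry from wild-type mice and from PAD4-deficient mice, labelled PAD4-/-, both of strain C57BL/6. Padi4 encodes PAD4, an enzyme that citrullinates histones, among other proteins. Each group was 1 array, hybridised with RNA amplified from 300 ng and labelled with Cy3. The age and sex of the mice, whether cells of several mice were pooled, and the deleted part of Padi4 are unstated in the labels.

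ABC proteins bind and hydrolyse ATP in a pair of conserved nucleotide-binding domains. Members of subfamilies A, B, C, D and G move lipids, drugs, peptides, bile salts or metal-linked molecules across membranes, while those of E and F have no membrane domain and act on ribosomes. In bone marrow the family is best known for dye efflux: Abcg2 pumps out Hoechst dye, which gives the side population in which stem cells are enriched, and the P-glycoproteins encoded by Abcb1a and Abcb1b pump out rhodamine and many drugs. Abca1 and Abcg1 export cholesterol, and loss of both in mice is known to expand the progenitor pool.

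Between 63.9% and 64.1% of all probes were well above background, and no spot was saturated. The signal is the processed spot brightness in arbitrary units, and it depends on the probe as well as on the transcript, so levels of different genes are not ranked. A difference is log2 of the PAD4-deficient signal minus log2 of the wild-type signal after each array was scaled to its 75th percentile, which adds 0.05 to every difference. Its error is the spot error of the scanner software over both arrays, about 0.20 for bright probes. It does not cover variation between mice, and with 1 array per group no difference has a replicate check or a test. Padi4 itself was lower in the PAD4-deficient cells at all 3 probes, with differences of -2.22, -2.05 and -2.24. Signals were 12879 and 2670, 254 and 59.4, and 6813 and 1394, so all 3 probes stayed well above background in PAD4-deficient cells. The gate genes Kit (0.07) and Ly6a, which encodes Sca-1 (-0.14), differed by less than their errors of 0.20. Of the 8 stem and progenitor markers of the gate, 3 differed by more than their errors: Flt3 (-0.67) and Procr (-0.38) were lower and Slamf1 (0.47) was higher. Among all measured genes, 14.1% were lower and 16.1% higher by more than their errors. The 6 measured lineage-marker genes of the gate had a median of 0.14, with 3 higher and 1 lower by more than their errors. Cd8a, a T cell lineage marker, was detected in PAD4-deficient cells alone (9.74 and 75.5, at least 4.42-fold higher). The other T cell markers of that list did not share a direction: Cd3e 0.33 (error 0.23), Cd4 -0.27 (error 0.27) and Cd5 -0.34 (error 0.21). Markers of committed cells differed between the arrays. The 11 measured erythroid markers had a median of 0.96 with 7 at least 1.5-fold higher. Their summed signal was 28587 in wild-type and 29139 in PAD4-deficient cells, of which Car2 made up 22721 and 21958. The 12 monocyte and macrophage markers had a median of 0.15 with 2 at least 1.5-fold higher. Their summed signals were 55549 and 56934, of which Lyz2 made up 52689 and 52969. Median differences were 0.66 for 7 dendritic, 0.69 for 6 mast cell and basophil, 0.62 for 7 B cell and 0.39 for 6 megakaryocyte markers. Summed signals, the wild-type array first, were 5110 and 7921 for dendritic and 10524 and 12895 for mast cell and basophil markers. They were 7886 and 10676 for B cell and 8529 and 10328 for megakaryocyte markers. Gata2 made up 8450 and 9220 of the mast cell and basophil sums, and Cd79b 5757 and 6240 of the B cell sums. A sum thus follows its brightest probes and does not measure the share of a cell type. The 4 measured endothelial and stromal markers had a median of -0.38 and summed signals of 967 and 723, with Cdh5, Col1a1 and Lepr well above background on neither array. Xist, the RNA that coats the inactive X in females, read 3.93 in wild-type and 16255 in PAD4-deficient cells, at least 951-fold higher. Ddx3y, a Y-linked gene, had 3455 and 1297 (-1.36), so it was lower but still well above background in PAD4-deficient cells. Xist and a Y-linked transcript were thus both detected on the PAD4-deficient array, while Xist was at background on the wild-type array. The part of cell composition and of sex in the differences below was not tested. In sorted bulk cells, fewer cells of a type and less RNA per cell cannot be told apart.

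Which ABC genes are expressed in LSK cells was read from detection. Of the 50 genes, 31 were well above background on both arrays by at least 1 probe, 3 on the wild-type array only, 2 on the PAD4-deficient array only and 14 on neither. Over all genes with a probe, the share on both arrays was 61.7% and the share on neither 34.1%, so the family was detected about as often as other genes. Detection differed by subfamily. All 4 ABCD, the only ABCE and all 3 ABCF genes were measured on both arrays, as were 7 of 10 ABCB, 4 of 6 ABCG, 8 of 16 ABCA and 4 of 10 ABCC genes. The undetected genes include well-known transporters of liver, gut and excitable cells. Abcb11, the bile salt export pump, Abcc2, which exports conjugated bilirubin, and Abcg5 and Abcg8, which together export sterols in gut and liver, were at background. So were Abcc8 and Abcc9, the sulphonylurea receptors that regulate potassium channels, and Abcc6, Abcc12, Abca8b, Abcb5 and the tandem trio Abca14, Abca15 and Abca16. The 40 probes that were not well above background on either array had signals between 3.52 and 16.1 in wild-type and between 3.71 and 18.2 in PAD4-deficient cells.

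**Figure D1:**
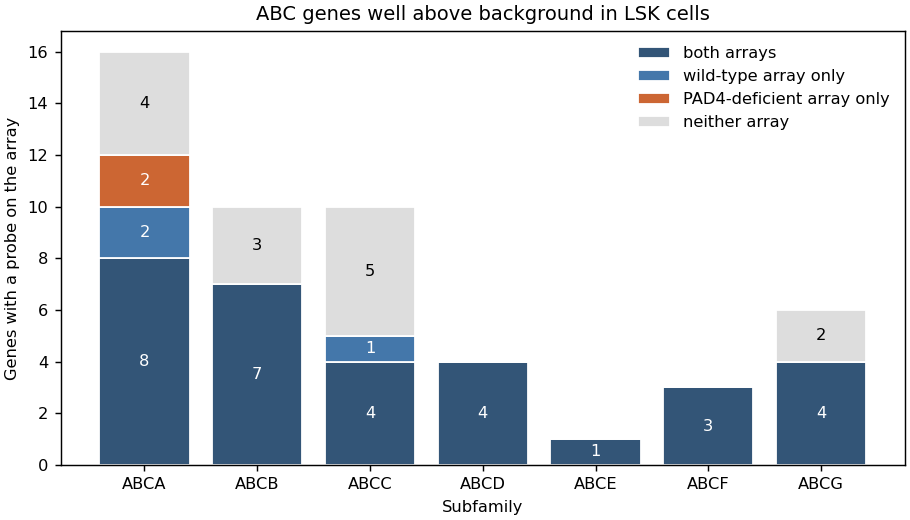
Number of ABC genes with a probe on the array (vertical axis) in each subfamily (horizontal axis), split by whether at least 1 probe was well above background on both arrays, on 1 array or on neither. All 8 genes of subfamilies D, E and F were measured on both arrays, against 4 of 10 in subfamily C.

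The dye efflux genes were examined first. Abcg2 was well above background by both of its probes and differed by less than its error. Its brighter probe (mm8 chromosome 6, 58620163 to 58621845) read 3646 in wild-type and 3533 in PAD4-deficient cells, which gives 0.00 (error 0.20). The other probe (58607928 to 58612858) had 1265 on each array and a difference of 0.05. Mice have a pair of genes in place of the single human P-glycoprotein gene. Abcb1b was well above background by all 3 of its probes. The brightest (mm8 chromosome 5, 8871931 to 8871990) had signals of 1905 and 1689, a difference of -0.12 with an error of 0.20. The second had 530 and 441 (-0.22), and the last, near background, had 32.2 and 33.1 (0.09). Abcb1a has a single probe on this array (mm8 chromosome 5, 8753985 to 8754044), which had signals of 7.61 and 11.0 and was not well above background on either array, so it allows no difference to be given. With 1 probe, a transcript that the probe binds poorly cannot be told apart from a transcript at a low level. Abcb4, the neighbour of that pair, encodes a phospholipid translocator rather than a drug pump. It was well above background, with signals of 3271 and 3401 at its brighter probe (0.11, error 0.20) and 65.6 and 72.5 at the other (0.19).

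The sequences before the start sites of these genes are shown because dye efflux in stem cells rests on these transporters. Each is the 250 bases upstream of a RefSeq transcript start (build GRCm38.p6), 5′ to 3′ on the gene's strand. Capitals mark matches, on either strand, to the GC box GGGCGG, the CCAAT box CCAAT, the TATA box TATAAA and the E-box CACGTG.
Abcb1a (chr5:8566841-8567090, plus strand): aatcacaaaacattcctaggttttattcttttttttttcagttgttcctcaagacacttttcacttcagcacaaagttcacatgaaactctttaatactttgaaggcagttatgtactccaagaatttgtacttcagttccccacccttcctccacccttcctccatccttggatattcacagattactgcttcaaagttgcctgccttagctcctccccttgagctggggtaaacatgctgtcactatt
Abcb1b (chr5:8797897-8798146, plus strand): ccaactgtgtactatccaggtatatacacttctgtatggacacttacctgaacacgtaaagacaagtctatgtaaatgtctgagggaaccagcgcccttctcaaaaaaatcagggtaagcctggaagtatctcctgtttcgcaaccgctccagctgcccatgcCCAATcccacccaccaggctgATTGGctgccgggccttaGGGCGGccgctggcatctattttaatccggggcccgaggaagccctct
Abcg2, second start (chr6:58596422-58596671, plus strand): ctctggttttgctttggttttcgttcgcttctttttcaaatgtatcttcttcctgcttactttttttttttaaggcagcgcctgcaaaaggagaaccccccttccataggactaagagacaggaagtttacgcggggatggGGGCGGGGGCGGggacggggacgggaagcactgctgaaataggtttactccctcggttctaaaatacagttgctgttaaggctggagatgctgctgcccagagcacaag
Abcg2, last start (chr6:58640296-58640545, plus strand): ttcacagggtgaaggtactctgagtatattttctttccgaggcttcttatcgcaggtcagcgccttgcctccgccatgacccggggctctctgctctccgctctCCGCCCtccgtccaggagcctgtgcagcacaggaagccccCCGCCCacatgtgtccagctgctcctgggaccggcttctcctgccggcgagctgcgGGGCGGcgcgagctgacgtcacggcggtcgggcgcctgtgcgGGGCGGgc
The Abcb1b window holds 2 CCAAT boxes and 1 GC box, and the Abcb1a window holds none of the 4 motifs. Only 1 start was available for each of these genes, and whether LSK cells use it was not tested. The 2 windows shared 136 of 212 aligned bases (64.2%), with 76 gaps. The Abcb1b and Abcb4 windows shared 66.5% with 88 gaps, and the Abcb1a and Abcb4 windows 56.1% with 58 gaps. These shares leave gaps out, and no unrelated windows were aligned, so they do not show that the promoters are related. The GC content was 52.8% for Abcb1b and 40.4% for Abcb1a. Abcg2 has 3 starts in the table: the first window holds no such motif, the second holds 2 GC boxes and the last 4. Of the 38 ABC genes with a window, a GC box was found for 14 of the 21 measured on both arrays and 3 of the other 17. Among all genes with a window and a probe, the shares were 60.5% of those measured and 26.8% of the rest, so the same direction was present genome-wide. CCAAT was found for 6 of the 21 and 7 of the 17, against 39.95% and 37.8% of all genes. TATAAA was found for 3 and 2, against 9.04% and 20.4%. A match is a string of letters in a window and not a shown binding site.

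Differences between the genotypes across the family were small. Of the 31 measured genes, 18 were lower and 13 higher on the PAD4-deficient array, where 45.0% of all 17019 measured genes were lower. With median scaling 24 of the 31 were lower, beside 56.4% of all measured genes. The median difference was -0.12, against 0.02 for all measured genes. Abcg4 alone was at least 1.5-fold higher and Abca8a alone at least 1.5-fold lower, where 2.88% of all genes were higher, 1.87% lower and 4.75% either by that fold. At 2-fold, Abcg4 remained as the only higher gene and no ABC gene was lower, where 1.01% and 0.476% of all genes were. A count of 1 in 31 in each direction is near that background. By the smaller yardstick of the scanner error, 12 of the 31 genes were lower by more than their error and 4 higher. Among all measured genes the shares were 14.1% and 16.1%. The ABC share was thus larger than that of all genes for lower and smaller for higher, which was not tested. The lower genes included 11 reported by name, Abca2, Abca3, Abca4, Abca6, Abca8a, Abcb8, Abcb9, Abcc1, Abcc3, Abcf2 and Abcf3, and the 4 higher were Abcb10, Abce1, Abcg3 and Abcg4. Of the 17 genes with at least 2 measured probes, 8 had all probes below 0, 7 had all above 0 and 2 had probes on both sides. The same count was not made over all genes, so nothing is read from it. Both genes past 1.5-fold were dim and came from 1 probe each: of the 6 measured members with a mean signal under 100, 2 passed 1.5-fold, and of the 25 brighter members none did, the largest being 0.53. Over all genes, 10.4% of those under 100 and 3.01% of the brighter ones passed 1.5-fold in either direction.

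**Figure D2:**
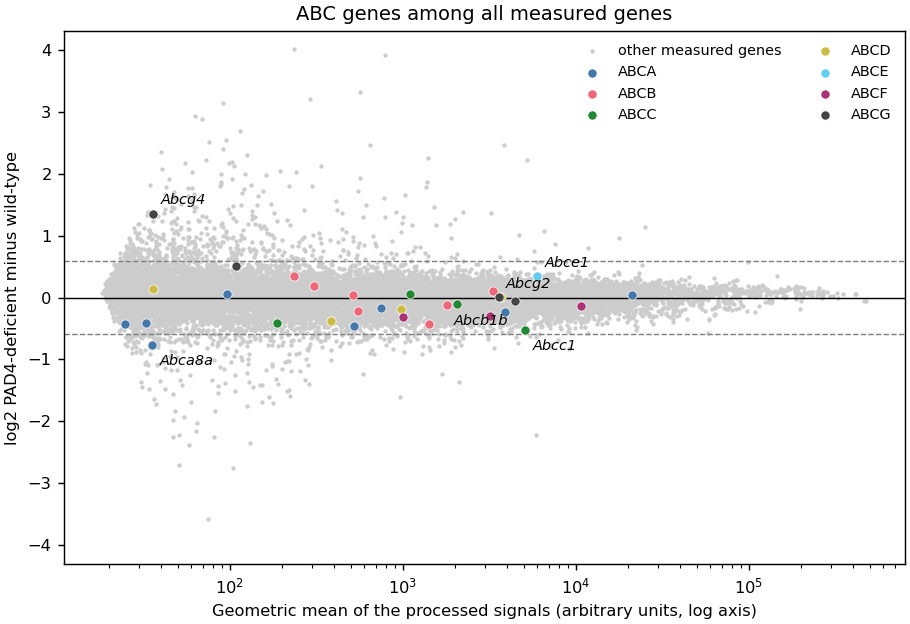
Difference between the arrays (log2, vertical axis) against the geometric mean of the signals (log axis) for all 17019 measured genes in grey and the 31 ABC genes in the colour of their subfamily; dashed lines mark 1.5-fold. Abcg4 and Abca8a lie at the dim end, and the 25 ABC genes with a mean signal of at least 100 lie inside the dashed lines.

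Subfamily B holds both plasma membrane pumps and transporters of mitochondria and lysosomes. Its 7 measured genes had a median difference of 0.04. The mitochondrial members did not share a direction. Abcb10, a transporter of the inner mitochondrial membrane needed for haem synthesis in red cell precursors, was higher at both probes, with signals of 212 and 261 at one (0.35, error 0.21) and 218 and 245 at the other (0.21). Abcb8, another inner membrane transporter, was lower, with 1684 and 1210 (-0.43, error 0.20). Its other probe was not well above background. Abcb6, a porphyrin transporter, had 520 and 516 (0.04), within its error. Abcb9, a peptide transporter of lysosomes, had 607 and 503 (-0.22, error 0.20). Abcb10 was thus higher beside the erythroid markers, of which Klf1 differed by 1.63 and Alas2, the erythroid haem synthesis enzyme, by -0.47. Their part in the Abcb10 value was not tested.

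In subfamily C, the multidrug resistance proteins, the 4 measured genes had a median of -0.26. Abcc1, which exports glutathione conjugates and leukotrienes, was lower by 3 probes of unequal size. Its brightest probe (mm8 chromosome 16, 14387083 to 14387142) had 6249 and 4181, a difference of -0.53 with an error of 0.20, and a probe that overlaps it (14387042 to 14387101) had 5846 and 3996 (-0.50). The last (14388036 to 14388095) had 4072 and 3782 (-0.06, error 0.20). The first pair overlap and so are not separate evidence of the size, and the last gave a difference within its error. Abcc3, an exporter of conjugated bile acids, had 221 and 161 (-0.41, error 0.21) at the 1 measured probe of 2. Abcc4, which exports cyclic nucleotides and prostaglandins and is abundant in platelets, had 2179 and 1957 (-0.10) with -0.03 at its second probe. Abcc5, another exporter of cyclic nucleotides, had 1098 and 1101 (0.05), with -0.12 and 0.18 at its dimmer probes. Abcc4 and Abcc5 differed by less than their errors of 0.20. Abcc10 was detected in wild-type cells alone, with signals of 23.7 and 11.3, which makes it at least 1.24-fold lower in PAD4-deficient cells.

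**Figure D3:**
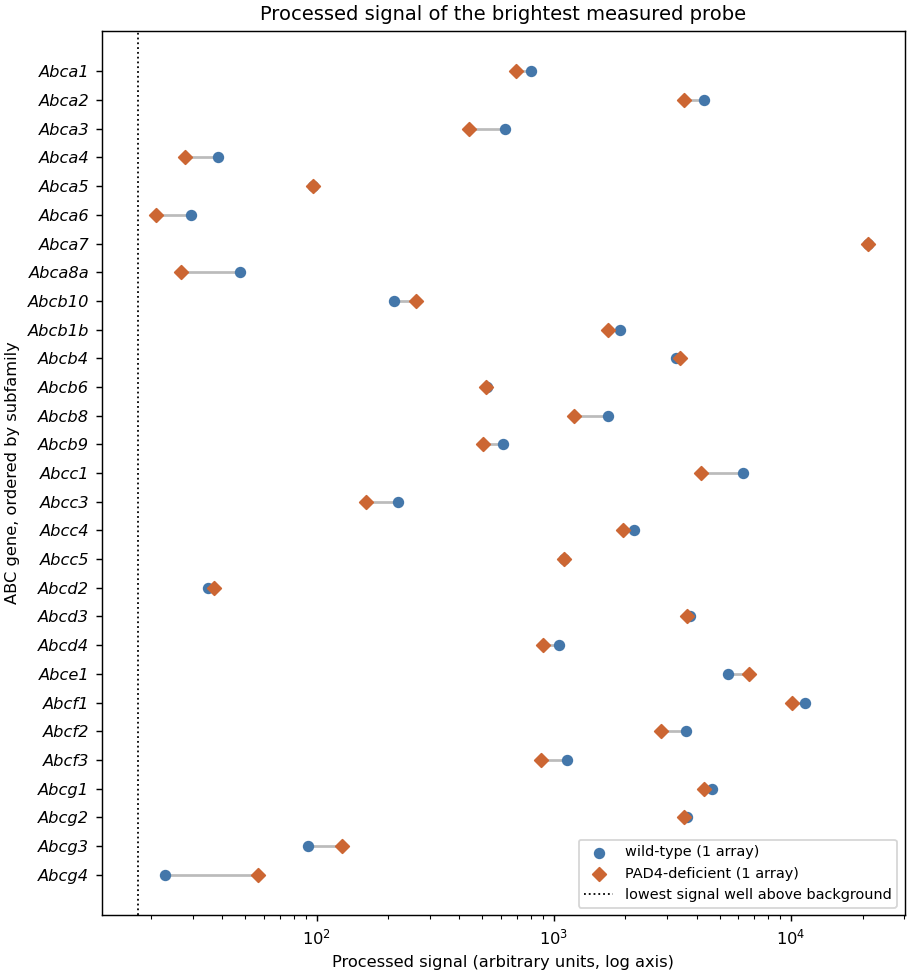
Processed signal (log axis, arbitrary units) of the brightest measured probe of 29 of the 31 ABC genes, with the wild-type array as circles and the PAD4-deficient array as diamonds, 1 array each. For Abcg2 the symbols coincide at 3646 and 3533, and the widest gap is that of Abcg4, at 22.9 and 56.7, close to the lowest signal well above background.

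Subfamily A, whose members move lipids, had the most genes near the detection limit. Its 8 measured genes had a median of -0.32, with 6 lower and 2 higher. Abca1, the cholesterol exporter that loads apolipoproteins, had 802 and 690 (-0.17, error 0.20). Abca2, a lipid transporter of late endosomes and lysosomes, was lower at both probes, with 4307 and 3532 (-0.24, error 0.20) and 3260 and 2439 (-0.37). Abca3, known for loading surfactant lipids into lamellar bodies of the lung, was lower at both measured probes, with 620 and 438 (-0.45, error 0.20) and 357 and 308 (-0.16). Its 2 other probes were at background. Abca7, a phospholipid transporter of blood and brain cells, had 21109 and 21047 at its bright probe (0.05, error 0.20). The dim probe of Abca7, at 26.7 and 41.4, differed by 0.68 (error 0.31), a difference that its bright probe did not share.

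Several ABCA genes lie side by side on chromosome 11 in the mouse genome, Abca8b, Abca8a, Abca9, Abca6 and Abca5 in that order, and all were dim or undetected. Abca8a (mm8 chromosome 11, 109841724 to 109841773) had 47.3 and 26.8, a difference of -0.77 with an error of 0.31, from its only probe. Abca6 had 29.4 and 21.1 (-0.43, error 0.38) at 1 of 2 probes. Abca5 had 96.5 and 96.8 (0.05, error 0.22) at 1 of 5 probes. Abca9 was detected in wild-type cells alone, at 1 of its 4 probes, with 25.8 and 3.71 (at least 1.35-fold lower in PAD4-deficient cells). Abca8b was well above background on neither. Of the 3 measured genes of the cluster, Abca8a and Abca6 were lower by more than their errors and Abca5 was within its error. Abca5 lay above 0 under every setting but median scaling (-0.002). With normexp background correction Abca6 was -0.05 with an offset of 50 and -0.16 without offset, both within its error. Outside the cluster, Abca4, the retinoid transporter of photoreceptors, had 38.2 and 27.8 (-0.41, error 0.32) at a single dim probe. Abca12, a lipid transporter of skin, was likewise detected in wild-type cells alone, at 1 of 3 probes, with 23.8 and 9.15 (at least 1.24-fold lower in PAD4-deficient cells).

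A pair of ABCA genes was detected in PAD4-deficient cells alone. Here a bound is given: the bright signal over the dim probe's own signal or the lowest signal well above background on the dim array, whichever is higher. Abca13, which encodes a very large member of the subfamily, read 3.996 in wild-type and 70.6 in PAD4-deficient cells at 1 probe (mm8 chromosome 11, 9124184 to 9124243), at least 4.13-fold higher. Its other 2 probes were not well above background on either array. Abca17, whose only probe lies on mm8 chromosome 17 at 24073872 to 24073931, had 6.10 and 60.8, at least 3.56-fold higher. Its neighbour Abca3 was lower on the same array. The number of genes seen on the PAD4-deficient array only was 2 of 50, where 2.28% of all genes had this pattern, and 3 of 50 were seen on the wild-type array only, where the share was 1.86%.

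Subfamily D carries fatty acids into peroxisomes, apart from Abcd4, which acts in lysosomal cobalamin export. All 4 genes were measured, with a median of -0.09. Abcd4 had 1054 and 899 (-0.18, error 0.20). Abcd2 was dim, with 34.9 and 36.9 (0.13, error 0.31) and the same difference at its second probe. Abcd3, an abundant peroxisomal membrane protein, had 3758 and 3649 (0.01, error 0.20) at its bright probe. A dim probe of Abcd3 (mm8 chromosome 3, 121764347 to 121766028) read 13.5 in wild-type and 213 in PAD4-deficient cells (at least 12.5-fold higher), and the remaining probe beside it (121766081 to 121766220) had 11.1 and 11.0. The bright probe and the remaining one therefore did not share that difference.

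**Figure D4:**
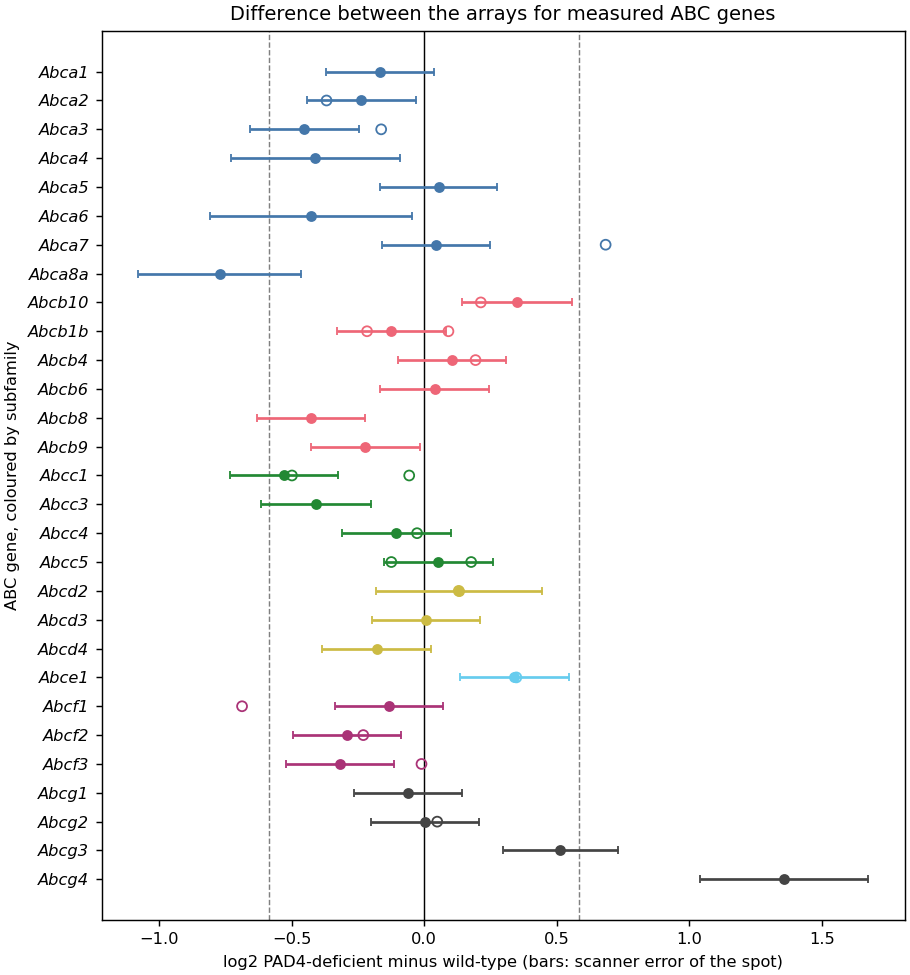
Difference between the arrays (log2, PAD4-deficient minus wild-type) for 29 of the 31 measured ABC genes, coloured by subfamily; filled points with bars are the brightest probe and its scanner error, open points are the other measured probes and dashed lines mark 1.5-fold. Probes of Abce1 coincide at 0.34 and 0.35, while those of Abcf1 lie at -0.13 and -0.69.

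The soluble subfamilies E and F hold 1 and 3 genes on the array. Abce1, which splits ribosomes for recycling after termination, was higher at both probes. The brighter (mm8 chromosome 8, 82579514 to 82579551) had 5424 and 6633 (0.34, error 0.20), and the other had 212 and 261 (0.35, error 0.21). The 3 ABCF genes had a median of -0.29, and all lay below 0, as did 45.0% of all measured genes. Abcf1, which acts in translation initiation, had 11399 and 10051 (-0.13, error 0.20) at its bright probe, and 1483 and 889 (-0.69, error 0.20) at a second probe. Abcf2 had 3590 and 2831 (-0.29, error 0.20), and a second probe gave -0.23. Abcf3 had 1139 and 882 (-0.32, error 0.20), with 975 and 935 (-0.01) at its other probe. Only the Abcf2 probes were both lower by more than the error, so for Abcf1 and Abcf3 the size depended on the probe.

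Among the other ABCG genes, Abcg1, the cholesterol exporter that loads high-density lipoprotein, had 4628 and 4281 at its only probe (-0.06, error 0.20). The macrophage markers, with a median of 0.15, thus stood beside differences of -0.17 for Abca1 and -0.06 for Abcg1, neither beyond its error. Abcg3, a rodent relative of Abcg2, had 92.3 and 127 (0.51, error 0.22), 1.43-fold higher. Abcg4, a sterol exporter best known from neurons and from megakaryocyte progenitors, had the largest difference of the 31 genes. Its only probe (mm8 chromosome 9, 44024309 to 44024368) read 22.9 in wild-type and 56.7 in PAD4-deficient cells, or 1.36 (error 0.32), which is 2.56-fold. The wild-type value lay just above the detection limit, since no probe under 17.7 counted as well above background there. With normexp background correction and an offset of 50 the difference was 0.50, under 1.5-fold, and for Abca8a it was -0.29. Of the 6 megakaryocyte markers, 3 were at least 1.5-fold higher on the same array, Selp (0.88, with 0.37 at its second probe), Clu (0.64) and Pf4 (0.63). Itga2b was lower (-0.43, error 0.20), and Gp1ba (0.16) and Gp9 (0.03) were within their errors. The part of these markers in the Abcg4 value was not tested. The 4 measured ABCG genes had a median of 0.26.

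The E-box CACGTG, which MYC and its partners can bind, was looked for because Myc was higher on the PAD4-deficient array (0.87 at its brightest probe, 0.99 and 0.24 at the others). It was found for 5 of the 38 ABC genes with a window, against 6.86% of all genes with one. By detection it was found for 4 of the 21 measured on both arrays and 1 of the other 17. Among all genes with a window and a probe, the shares were 9.53% of those measured and 5.48% of the rest. The 4 measured carriers are shown as 30 bases on the gene's strand (build GRCm38.p6), with the E-box in capitals.
Abca1 (chr4:53160025-53160054, minus strand): gggccatgtctcCACGTGctttctgctgag
Abca8a (chr11:110096056-110096085, minus strand): ttcgagaatggtCACGTGaatacagtgctc
Abcc4 (chr14:118706407-118706436, minus strand): acgggtctcaagCACGTGcggcttccccgc
Abcf1 (chr17:35969834-35969863, minus strand): gcccctttgcccCACGTGtctgcgcagcag
The differences of these 4 genes were -0.17, -0.77, -0.10 and -0.13, and all but that of Abca8a were within the scanner error. All 4 lay below 0, as did 58.1% of the measured ABC genes and 45.0% of all genes. The fifth carrier, Abca15, was not detected.

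Genes that work with the ABC proteins were followed in lists by role. Of the 19 measured genes of sterol sensing and cholesterol efflux none was 1.5-fold different and the median was -0.04. Rxra, a partner of the oxysterol receptors that induce Abca1 and Abcg1, had 1756 and 1190 (-0.51), and Sqle, a sterol synthesis enzyme, had 2005 and 2623 (0.44). Of the 21 genes of iron-sulphur cluster and haem synthesis, which share the mitochondria with Abcb8 and Abcb10, none was 1.5-fold different, with a median of 0.06. By more than their errors, 3 of these genes were higher and 3 lower. The highest was Cpox, a haem synthesis enzyme, with 714 and 999 (0.53), and the lowest was Alas2, with 195 and 136 (-0.47). The 21 peroxisomal genes, partners of subfamily D, had a median of 0.09 and no member past 1.5-fold. The 15 translation partners of Abce1 and the ABCF proteins had a median of 0.14, with none past 1.5-fold at the brightest probe. Pelo, which acts with Abce1 in splitting stalled ribosomes, had 8313 and 9505 (0.24, error 0.20), while Gcn1, the partner of the ABCF relative in yeast, had 4150 and 3352 (-0.26), with its 4 measured probes between -0.42 and 0.20.

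Of the 16 measured genes of drug metabolism, 1 was at least 1.5-fold higher and 1 lower, with a median of 0.02. Mvp, the major vault protein once studied as a drug resistance protein, had 1893 and 1057 (-0.79, error 0.20), and Nr1i3, a xenobiotic receptor, had 159 and 235 (0.61, error 0.21). Nr1i2, the receptor that induces P-glycoprotein in liver, was not well above background on either array. Peptide loading includes Tap1 and Tap2, ABC proteins of subfamily B that carry another name and so stand outside the 50 genes. Tap1, which forms the peptide pump with Tap2, had 3934 and 2476 (-0.62, error 0.20), the only 1 of 14 measured genes past 1.5-fold, and Tap2 had 5127 and 3977 (-0.32). The other loading genes lay between -0.39 (Tapbpl) and 0.20 (Psmb8), and the list median was 0.07. Cftr, a chloride channel of subfamily C, was not well above background on either array. Kcnj8 and Kcnj11, the channel subunits that pair with Abcc9 and Abcc8, were each well above background on 1 array only, with signals of at most 24.0.

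**Figure D5:**
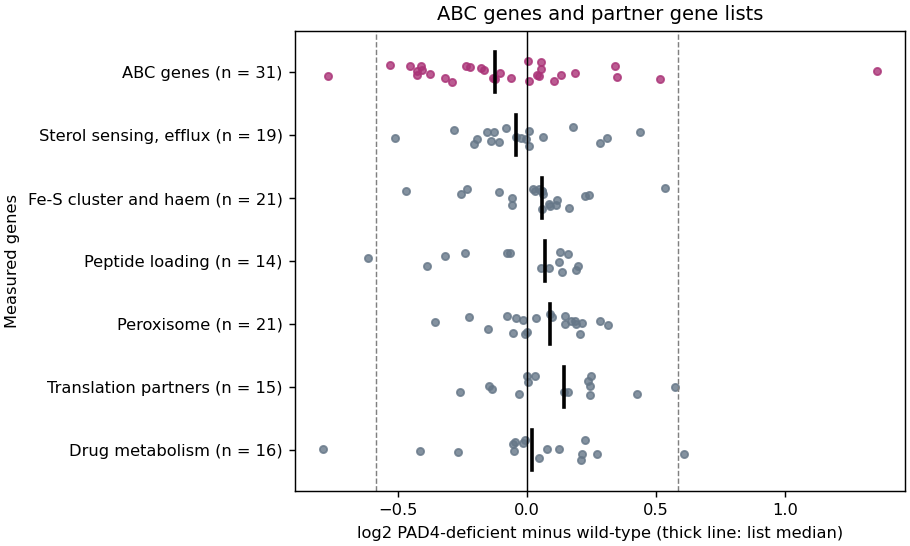
Difference between the arrays (log2) for the measured ABC genes and for 6 lists of partner genes, 1 point per gene, with the list median as a thick line and 1.5-fold as dashed lines. The ABC median lies at -0.12 and the list medians between -0.04 and 0.14.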

How the data were processed

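Per the labels' protocols, RNA of sorted LSK cells was isolated with Trizol and labelled with the One-Color Agilent Quick Amp kit, 1 array per genotype. Per the file headers, the deposited scanner files were made by Feature Extraction 9.5.3.1 (9.5 in the submitters' processing notes) from 1-colour scans of Agilent design 014868. Per the file headers, the intensity used is the processed signal, linear, with background subtracted and spatial trends removed; a spot error and mm8 positions accompany it. The deposited table holds log2 values and equalled the log2 processed signal minus 9.67 for the wild-type and 9.62 for the PAD4-deficient array, within 0.001 for all 41174 probes. Its column medians were -3.59 and -3.53, which leaves neither its scale nor its centring unknown.

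Spots flagged as outliers were left out, and each array's log2 signal was scaled to its 75th percentile (814 and 786). A probe was measured when well above background on both arrays, and a gene took its brightest measured probe. Every ABC probe was a single spot, and all 50 ABC symbols matched the RefSeq table of GRCm38.p6, which served for names, gene order and promoter sequences. Member genes, partner lists and markers were chosen with earlier results of these data known. Named in full were Abcg2, Abcb1a and Abcb1b, members past 1.5-fold, and members on 1 array only with a bound of 2 or more; other members are given within their subfamily. List genes were to be named past 1.5-fold; Rxra, Sqle, Cpox, Alas2, Pelo, Gcn1, Tap2, Tapbpl, Psmb8 and the receptor, channel and marker genes under it were chosen after their values were seen, as was the dim Abcd3 probe. The scaling and the choice of probe were tested on simulated data, with 2-fold and 3-fold differences planted in measured genes and noise below the scanner error. Detection, the bounds and the error counts were not tested in this way. Python 3.11.15 with numpy 2.4.6, pandas 2.3.3 and statsmodels 0.14.6 did the calculations, and normexp came from limma 3.58.1 (R 4.3.3). Some items are not reported here, by name or in the plots by gene; counts and medians include them. The number of arrays limits the precision.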

Additional observations from a re-analysis of the deposited data

How the results depend on the processing

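No paired analysis was possible because a single array stood for each genotype; for that reason none could be left out. Measured ABC genes numbered 31, or 42 when a probe had only to be significantly positive and 36 when detection on 1 array sufficed. The counts past 1.5-fold, 1 higher and 1 lower, became 0 and 0 with normexp and an offset of 50, 3 and 4 when detection on 1 array sufficed, 4 and 6 without any signal filter (shares of all genes 5.28% and 3.42%, then 8.37% and 5.06%), 1 and 0 at 2-fold, and 0 and 0 at 3-fold or with 2 or more measured probes that all passed. The lower count was 0 with normexp without offset and 2 with median scaling. The looser filters add dim probes, the higher folds change the threshold, and the offset, being added to both signals, pulls dim differences toward 0; the cause of the other changes was not tested. The median of -0.12 lay between -0.18 and -0.08 under the scalings, both normexp settings, the deposited table, the mean over probes and the looser filter of at least 1 array, and was -0.029 without any signal filter. The count of genes lower by more than the scanner error was 8 to 14, and of those higher 3 to 6. Median scaling shifted all genes by -0.06, which turned the sign of 6 members near 0, Abcg2 to -0.05 among them; no other setting turned a sign. Of 61 values of single named genes under the alternatives, 7 moved by more than the error (for bounds, by over 1.5 times), all with normexp: Abcg4 to 0.50 with the offset and 0.89 without, Abca8a to -0.29, Abca13 to at least 1.77-fold, Abca17 to at least 1.79-fold, and the dim Abcd3 probe to at least 3.66-fold with the offset and 7.91-fold without. Part of the 61 values could not move. The looser filters kept the same probe for each named gene, and the mean over probes kept the only probe of Abcg4 and of Abca8a. The deposited table differs from the main scaling by a constant of about -0.001. The 61 are therefore not that many separate checks. Normexp without offset, the error counts and the count over several probes were chosen after seeing the data. Signal over background limits the dim genes.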
